A study of Mus musculus with 12 samples.

Results

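CXC chemokines and their receptors were followed in RNA from mouse skin through 9 genes of the 53465 in each library: the ligand genes Cxcl1, Cxcl2, Cxcl3, Cxcl5, Cxcl12, Cxcl14 and Cxcl16 and the receptor genes Cxcr2 and Cxcr4. The genes were taken by name, whatever their values. Bulk RNA sequencing had been made of 4 groups of 3 libraries: irradiated Foxp3-DE2 skin (irradiated DE2), irradiated Foxp3-WT skin (irradiated WT), untreated Foxp3-DE2 skin (untreated DE2) and untreated Foxp3-WT skin (untreated WT). Foxp3 encodes the transcription factor of regulatory T cells. The altered genotype is written Foxp3-E2 in the sample labels, Foxp3-DE2 in the protocol and Foxp3dExon2 in the series title, and was taken as 1 genotype. Irradiated skin came from a shaved area of the back flank given 6 doses of ultraviolet B light (UVB), 200 mJ/cm2 in the sample labels and 100 mJ/cm2 in the protocol, and untreated skin from a control site. The contrasts called UVB below therefore also compare the shaved area with the control site, and UVB and site cannot be told apart. The labels used here state no age, sex or strain. No label ties a library to a mouse, so the p-values compare libraries, some of which may come from the same animal.

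Chemokines are small secreted proteins that direct the movement of leukocytes along a gradient. The CXC ligands that carry a glutamate-leucine-arginine (ELR) motif, among them Cxcl1, Cxcl2, Cxcl3 and Cxcl5, bind Cxcr2 and draw neutrophils into tissue, and their genes are induced by interleukin 1, tumour necrosis factor and interleukin 17 through NF-kappaB. Cxcl12 holds and guides cells that carry Cxcr4, Cxcl14 is made constitutively by the epidermis, and Cxcl16 is made as a membrane-bound protein that is shed from the cell and binds Cxcr6.

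Levels are given as CPM, counts set to a common library total with TMM factors, and differences as log2 fold changes ± SE from edgeR's quasi-likelihood test, called at an adjusted p under 0.05 over the 15126 genes tested. Total counts ran from 2809142 to 4741726 per library, so 1 count is a large part of a low level here. All 8 keratinocyte markers were detected in every group. Foxp3 had 0 counts in 10 libraries, so the genotype labels could not be checked from it. The 3 untreated DE2 libraries stood apart from the other 9 on a first principal component with 39.7% of the variance. In them 10 skeletal muscle genes took 5.56% to 9.39% of their counts, against 1.3% to 5.02% in the other 9 libraries, and 11 hair follicle genes took 0.0115% to 0.0738%, against 0.885% to 2.76%. No value without these 3 libraries can be had for a comparison that uses untreated DE2, and their part in such results was not tested. In bulk RNA, fewer cells of a type and less RNA per cell cannot be told apart.

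Cxcl5, Cxcl3, Cxcl1 and Cxcl2 lie on the plus strand of 1 stretch of chromosome 5 (GRCm38), at 90759360 to 90761624, 90786103 to 90789600, 90891241 to 90893115 and 90903871 to 90905938. Of the 9 genes, 7 matched an entry in RefSeq's promoter table for GRCm38.p6, which holds 250 bases before to 50 bases after each gene's start; Cxcl5 and Cxcl16 did not. An NF-kappaB-type motif, GGGA followed by any 2 bases and then TTCC, was searched on both strands. It was found in the windows of Cxcl1, Cxcl2 and Cxcl3 and in 1.47% of the 32851 promoter entries. It was not found in those of Cxcl12, Cxcl14, Cxcr2 and Cxcr4. The stretches from 150 to 31 bases before the start are shown because these 3 promoters share the match while their transcripts differed widely in level. Capitals mark 11 bases in which 2 overlapping matches, 1 on each strand, coincide.
Cxcl1, chr5:90891095-90891214, plus strand: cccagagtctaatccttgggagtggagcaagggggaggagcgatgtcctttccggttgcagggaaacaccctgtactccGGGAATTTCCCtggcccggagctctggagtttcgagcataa
Cxcl2, chr5:90903749-90903868, plus strand: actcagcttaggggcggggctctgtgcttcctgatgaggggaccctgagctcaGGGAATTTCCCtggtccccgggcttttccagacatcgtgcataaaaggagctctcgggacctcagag
Cxcl3, chr5:90785951-90786070, plus strand: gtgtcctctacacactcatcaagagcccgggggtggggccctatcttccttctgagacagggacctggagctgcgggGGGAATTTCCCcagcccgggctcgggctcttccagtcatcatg
Counted from the RefSeq starts of that table (90891245 for Cxcl1, 90903899 for Cxcl2 and 90786101 for Cxcl3), which differ from the GENCODE starts given first, the capitals begin 71 bases before the start of Cxcl1, 97 before that of Cxcl2 and 73 before that of Cxcl3. The match describes the letters and does not show a site in use.

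In irradiated skin, DE2 libraries held more Cxcl2, Cxcl3 and Cxcl16 than WT libraries. These 3 of the 9 genes were called higher and none lower, where 2.96% of all genes tested were called, 2.35% higher and 0.608% lower. Between UVB-treated and untreated DE2 skin Cxcl2, Cxcl3, Cxcr2 and Cxcr4 were called higher and none lower, where 27.8% of all genes were called, 14.4% higher and 13.4% lower. None of the 9 was called between the genotypes in untreated skin, where 23.0% of all genes were called, nor between UVB-treated and untreated WT skin, where 0.0198% were. At an unadjusted p under 0.05, 2 of the 7 tested passed between the genotypes in untreated skin, where 35.6% of all genes did, and 0 for UVB in WT, where 4.56% did. The difference between the UVB effects of the genotypes, tested as an interaction, was called for 10.5% of all genes and for none of the 9. Cxcl1 and Cxcl5 did not pass the filter on low counts and were not tested. Cxcl3 and Cxcr4 passed it through the irradiated DE2 libraries, and Cxcr2 through 2 of those and 1 irradiated WT library, so these counts are descriptions and do not show that the family differs from other genes. The count of 3 in irradiated skin became 1 without irradiated DE2 replicate 1 or 2 or irradiated WT replicate 1 or 3, 4 without irradiated WT replicate 2, and 1, Cxcl16, in DESeq2. For the interaction the count became 1 without irradiated DE2 replicate 3, irradiated WT replicate 2 or untreated DE2 replicate 2.

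**Figure D1:**
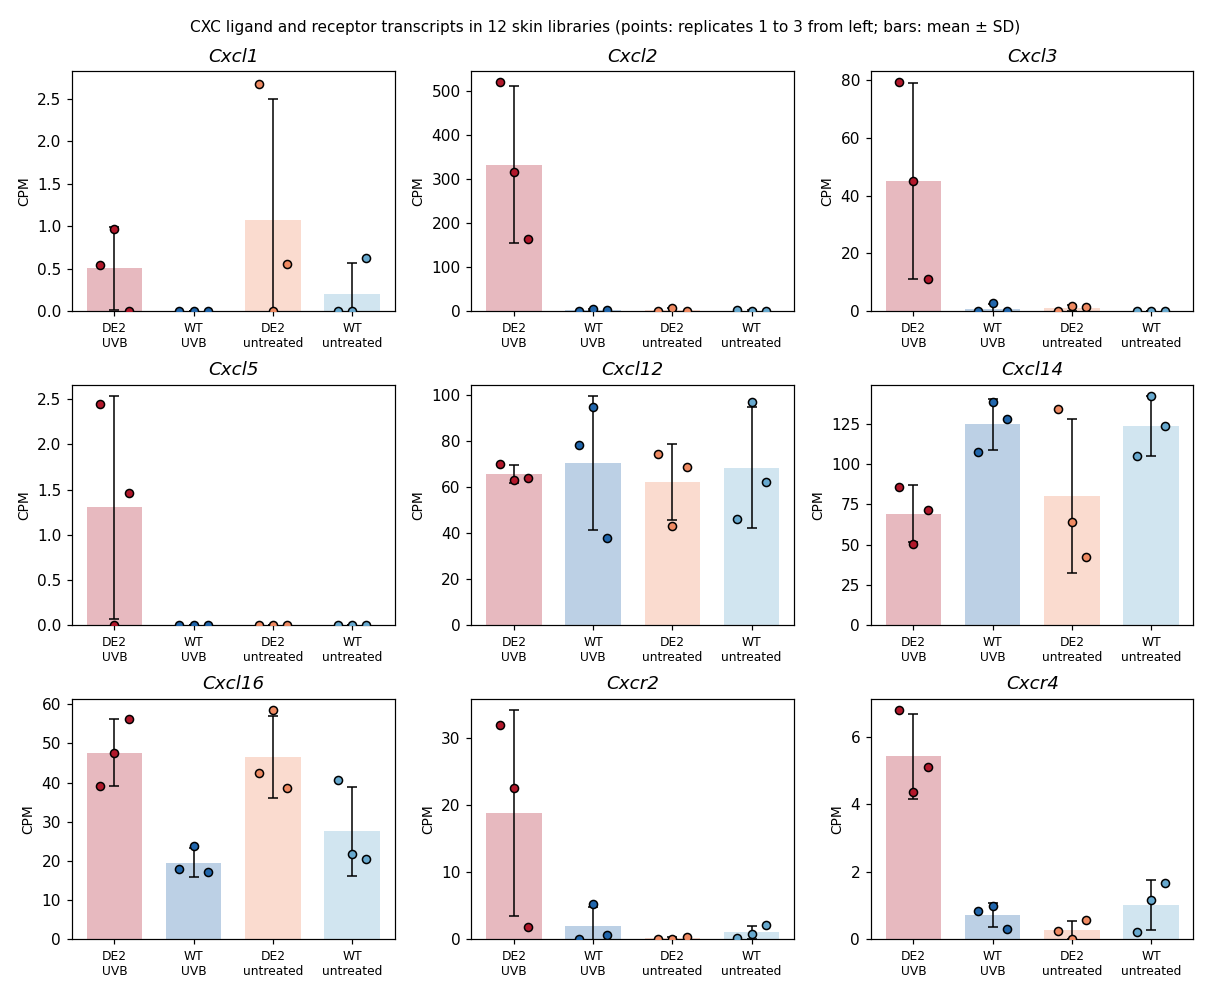
Level (CPM, linear axes that differ between panels) of the 9 genes in 12 skin libraries; points are replicates 1 to 3 from left, bars the mean and whiskers ± SD (n = 3), cut at 0. Cxcl2 and Cxcl3 stood high in the 3 irradiated DE2 libraries, Cxcl12 overlapped between all groups, and Cxcl1 and Cxcl5 stayed under 3 CPM throughout.

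Cxcl2, a neutrophil attractant also known as MIP-2, was the ligand with the widest range. It was at 519, 316 and 163 CPM in irradiated DE2 libraries, against 0, 5.66 and 2.13 CPM in irradiated WT libraries. Untreated DE2 libraries held 0, 8.49 and 0 CPM, and untreated WT libraries 2.18, 0 and 0 CPM. The 3 irradiated DE2 libraries lay above all 9 others, and in the other groups the gene was at 0 in 5 of 9 libraries. In irradiated skin the log2 fold change of DE2 over WT was 6.94 ± 1.10 (adjusted p = 0.00447). DESeq2 gave a like change, 7.01, with an adjusted p of 0.0919, which does not pass. In DE2 skin the log2 fold change of UVB-treated over untreated was 6.91 ± 1.09 (adjusted p = 0.000538); both contrasts use the same irradiated DE2 libraries. Without untreated DE2 replicate 2, the one untreated DE2 library with counts, that group was at 0 and the fitted value of 13.3 is no measure of size. In WT skin the log2 fold change with UVB was 1.83 ± 1.53 (adjusted p = 1), and in untreated skin that of DE2 over WT was 1.86 ± 1.53 (adjusted p = 0.422). The second turned to -4.56 without untreated DE2 replicate 2, and passed when genes with low counts were kept (adjusted p = 0.0027). The interaction was 5.09 ± 2.26 on the log2 scale (adjusted p = 0.169). It passed without untreated DE2 replicate 2 (adjusted p = 0.0404), where that group was at 0, and when genes with low counts were kept (1.03e-09). Leaving out 1 library in turn moved the interaction between 0.593 and 11.5, and UVB in WT skin between 0.458 and 6.38. The highest adjusted p of the interaction over all settings was 0.925. Where leaving out a library puts a group at 0, such values are no measure of size. Over all other settings, DESeq2 among them, the adjusted p between irradiated groups ran from 3.07e-77 to 0.0919. The size of p for this gene thus depended strongly on the setting.

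Cxcl3, a close relative of Cxcl2 that also acts on Cxcr2, followed it at a lower level. It was at 79.2, 45.0 and 11.3 CPM in irradiated DE2 libraries, against 0, 2.71 and 0 CPM in irradiated WT libraries. It was at 0, 1.98 and 1.39 CPM in untreated DE2 libraries and at 0 in untreated WT libraries. The irradiated DE2 libraries again lay above the other 9, in the same order as for Cxcl2, with replicate 1 highest and replicate 3 lowest. The log2 fold change of irradiated DE2 over irradiated WT was 5.51 ± 1.17 (adjusted p = 0.0286). This call was lost without irradiated DE2 replicate 1 (adjusted p = 0.122) or 2 (0.106), without irradiated WT replicate 1 (0.0921) or 3 (0.0746), and in DESeq2 (0.12). Without irradiated WT replicate 2, which held all 11 counts of its group, the fitted value of 10.4 is no measure of size. UVB-treated over untreated DE2 skin gave 5.33 ± 1.16 (adjusted p = 0.00539). Against untreated WT, with 0 counts in all, untreated DE2 with 12 counts was at least 4.87-fold higher and irradiated WT with 11 counts at least 4.56-fold higher. The floor for the group at 0 was 3 counts over the group. These bounds cover the counting error of that group only and take the 12 and 11 counts as exact. Neither comparison was called (adjusted p = 0.131 and 1).

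Cxcl1, the neutrophil attractant also called KC, stayed near the limit of detection although its promoter carries the same capitals as Cxcl2. It had 22 counts over the 12 libraries. Irradiated DE2 libraries held 0.544, 0.968 and 0 CPM and irradiated WT libraries none, which allows up to 0.273 CPM in that group. At the untreated site DE2 libraries held 2.68, 0 and 0.556 CPM, and WT libraries 0, 0 and 0.625 CPM. The groups overlapped, and the highest library was an untreated DE2 one. In irradiated skin 6 counts in DE2 against 0 in WT make at least a 2.09-fold difference on the same floor, with the 6 taken as exact. In untreated skin 13 counts in DE2 against 3 in WT make a ratio of 5.28 (exact 95% counting interval 1.45 to 28.9). Untreated DE2 replicate 1 held 11 of the 13 counts, and untreated WT replicate 3 held all 3. The interval leaves out the spread between libraries, and Cxcl1 was not tested.

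Cxcl5, which encodes the neutrophil attractant LIX, was counted in irradiated DE2 skin alone. Its 13 counts gave 2.45, 0 and 1.46 CPM in irradiated DE2 libraries, against 0 CPM in the 9 libraries of the other groups. Irradiated DE2 replicate 2 was at 0 as well, so the groups touch. On the floor of 3 counts, irradiated DE2 was at least 4.52-fold above irradiated WT and at least 4.61-fold above untreated DE2. These bounds take the 13 counts as exact, cover the counting error of the group at 0 only, and have no test.

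Scaled to exon length, the 4 ELR ligands together reached 275, 166 and 83.0 CPM per kb in irradiated DE2 libraries. Irradiated WT libraries held 0, 3.51 and 1.03 CPM per kb, untreated DE2 libraries 1.43, 4.67 and 0.694, and untreated WT libraries 1.05, 0 and 0.334. Cxcl2 made up 91.2%, 91.9% and 95.2% of the ELR sum in the irradiated DE2 libraries. Its level per kb was 11.1, 11.9 and 24.4 times that of Cxcl3, with the widest ratio in replicate 3, where both were lowest. Of the 7 ligands summed per kb, the ELR ligands took 80.1%, 76.5% and 55.9% in irradiated DE2 libraries. They took 0% to 3.55% in irradiated WT, 1.46% to 7.24% in untreated DE2 and 0% to 1.36% in untreated WT libraries. Among these 7 ligands the mixture of transcripts was therefore mostly Cxcl2 in irradiated DE2 skin and mostly Cxcl14 in irradiated and untreated WT skin. Other CXC ligands were not in this sum. Pf4, one of those, was at 67.5, 79.5 and 105 CPM per kb in irradiated DE2 libraries. Irradiated WT libraries held 78.3, 42.3 and 36.7 CPM per kb of Pf4.

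**Figure D2:**
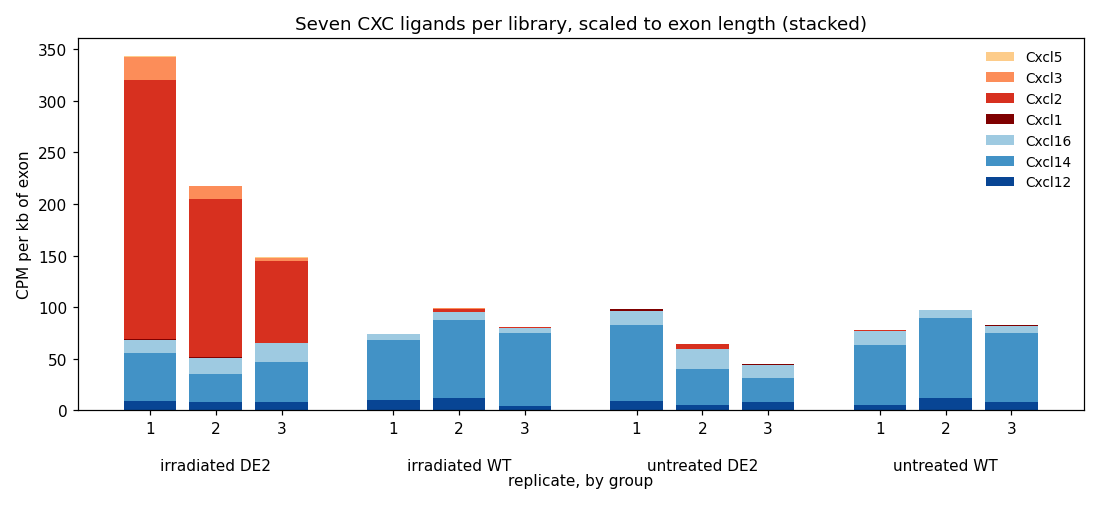
Stacked level of the 7 ligand genes (CPM per kb of exon) in each of 12 libraries, by group. Reds are the ELR ligands and blues Cxcl12, Cxcl14 and Cxcl16; Cxcl2 makes up most of the irradiated DE2 bars, which reach 344, 217 and 148 CPM per kb, and Cxcl14 most of the WT bars.

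Cxcl16, the transmembrane ligand of Cxcr6 that also takes up oxidised lipids, was at 39.2, 47.7 and 56.1 CPM in irradiated DE2 libraries, against 17.8, 23.9 and 17.0 CPM in irradiated WT libraries. Untreated DE2 libraries held 42.4, 58.6 and 38.6 CPM, and untreated WT libraries 40.7, 21.7 and 20.4 CPM. The irradiated groups did not overlap, and DE2 skin was at about the same level at both sites. The log2 fold change of DE2 over WT was 1.28 ± 0.31 in irradiated skin (adjusted p = 0.0371) and 0.75 ± 0.30 in untreated skin (adjusted p = 0.0869). UVB gave 0.03 ± 0.30 in DE2 skin (adjusted p = 0.949) and -0.49 ± 0.31 in WT skin (adjusted p = 1), and neither passed. The call in irradiated skin was lost with unscaled library totals (adjusted p = 0.0653) and without any 1 irradiated library other than WT replicate 2. The adjusted p was 0.0661, 0.123 and 0.13 without irradiated DE2 replicates 1, 2 and 3, and 0.134 and 0.143 without irradiated WT replicates 1 and 3. Without untreated WT replicate 1 the difference in untreated skin passed (1.07, adjusted p = 0.0314). Cxcl16 (chromosome 11, 70453983 to 70459984, minus strand) shares 552 exonic bases with Zmynd15 on the opposite strand, and no source used here names the strand setting of the counting. Zmynd15 had 33, 40 and 18 counts in irradiated DE2 libraries, against 0, 1 and 1 in irradiated WT libraries, and Cxcl16 had 144, 197 and 154 counts in the same irradiated DE2 libraries, against 65, 97 and 56 in the irradiated WT libraries. The part of that overlap in the difference was not tested.

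Cxcl14, the constitutive epidermal ligand (chromosome 13, 56288643 to 56296551, minus strand), was the member whose irradiated DE2 libraries lay below the irradiated WT ones. It was at 85.7, 50.6 and 71.4 CPM in irradiated DE2 libraries, against 108, 139 and 128 CPM in irradiated WT libraries. In untreated skin it was at 134, 64.2 and 42.2 CPM in DE2 libraries and at 105, 142 and 124 CPM in WT libraries. The irradiated groups did not overlap, which for lower levels held for 9.35% of all genes, while untreated DE2 replicate 1 lay among the WT libraries. DE2 over WT gave -0.85 ± 0.33 in irradiated skin (adjusted p = 0.22) and -0.62 ± 0.33 in untreated skin (adjusted p = 0.191), and neither passed. The second passed without untreated DE2 replicate 1 (-1.21, adjusted p = 0.00383), and the first when genes with low counts were kept in the test (adjusted p = 0.0314). UVB gave -0.22 ± 0.33 in DE2 skin (adjusted p = 0.671) and 0.01 ± 0.32 in WT skin (adjusted p = 1); the first turned to 0.37 without untreated DE2 replicate 1.

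Cxcl12, the ligand of Cxcr4 made by stromal cells (chromosome 6, 117168535 to 117181367, plus strand), did not differ detectably in any comparison. Irradiated DE2 libraries held 70.2, 62.9 and 63.8 CPM, against 78.4, 94.7 and 38.0 CPM in irradiated WT libraries. Untreated DE2 libraries held 74.3, 43.3 and 68.9 CPM, and untreated WT libraries 45.9, 97.2 and 62.1 CPM. All 4 groups overlapped and the WT groups were the wider. The log2 fold change of irradiated DE2 over irradiated WT was -0.10 ± 0.33 (adjusted p = 0.937) and that of UVB-treated over untreated DE2 skin 0.08 ± 0.33 (adjusted p = 0.89).

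The neutrophil receptor Cxcr2 (chromosome 1, 74153989 to 74161246, plus strand) was at 31.8, 22.5 and 1.82 CPM in irradiated DE2 libraries, against 0, 5.17 and 0.608 CPM in irradiated WT libraries. Untreated DE2 libraries held 0, 0 and 0.278 CPM, and untreated WT libraries 0.218, 0.699 and 2.08 CPM. Irradiated DE2 replicate 3, with 5 counts against 117 and 93, lay below 1 irradiated WT and 1 untreated WT library, so it overlapped both WT groups while the other 2 lay above all libraries. In that library Cxcl2 still had 448 counts. The log2 fold change of DE2 over WT in irradiated skin was 3.23 ± 1.16 (adjusted p = 0.174) and did not pass. It passed without irradiated WT replicate 2 (5.86, adjusted p = 0.0488), without that library and untreated DE2 replicate 1 together (0.0346), and when genes with low counts were kept (adjusted p = 0.00196). In DE2 skin, 215 counts with UVB against 1 without make a ratio of 229 (exact 95% counting interval 40.7 to 9085; adjusted p = 0.00412 between the libraries). In untreated skin 1 count in DE2 against 14 in WT make a ratio of 0.087 (interval 0.00206 to 0.572), which was not called (adjusted p = 0.231). UVB in WT skin gave 0.94 ± 1.21 (adjusted p = 1), which turned to -1.68 without irradiated WT replicate 2. The interaction had an adjusted p of 0.0646, and passed without irradiated DE2 replicate 3 (0.0455) or irradiated WT replicate 2 (0.0204), without irradiated WT replicate 2 and untreated DE2 replicate 1 together (0.0211), with unscaled library totals (0.0486), in DESeq2 (0.0126) and when genes with low counts were kept (0.000183).

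Cxcr4, the receptor of Cxcl12 on most leukocytes (chromosome 1, 128588199 to 128592293, minus strand), was at 6.80, 4.36 and 5.10 CPM in irradiated DE2 libraries, against 0.822, 0.984 and 0.304 CPM in irradiated WT libraries. Untreated DE2 libraries held 0.244, 0 and 0.556 CPM, and untreated WT libraries 0.218, 1.16 and 1.67 CPM. Its irradiated DE2 libraries lay close together and above the other 9. With Cxcl2, Cxcl3 and Cxcl16 it was 1 of 4 of the 9 genes whose irradiated DE2 libraries lay wholly above the irradiated WT ones, which held for 11.9% of all genes tested. Wholly above untreated DE2 lay Cxcl2, Cxcl3, Cxcr2 and Cxcr4, against 22.0% of all genes. The log2 fold change of DE2 over WT in irradiated skin was 2.87 ± 1.02 (adjusted p = 0.169) and did not pass. In DE2 skin, 57 counts with UVB against 3 without make a ratio of 20.2 (exact 95% counting interval 6.58 to 101; adjusted p = 0.0126), and the call was lost without untreated DE2 replicate 2 (adjusted p = 0.0542). In untreated skin 3 counts in DE2 against 14 in WT make a ratio of 0.261 (interval 0.0481 to 0.935), which was not called (adjusted p = 0.277). The interaction had an adjusted p of 0.0631, and passed with unscaled library totals (0.0467) and in DESeq2 (0.0232).

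**Figure D3:**
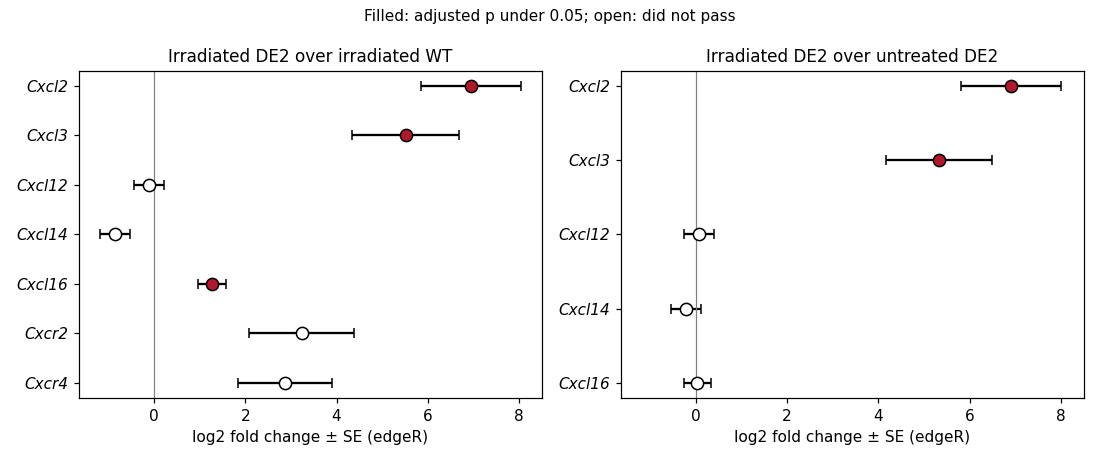
Log2 fold change (points) ± SE (whiskers) from edgeR for irradiated DE2 over irradiated WT (left) and over untreated DE2 (right); filled points passed at an adjusted p under 0.05. Cxcr2 and Cxcr4 are left out on the right because untreated DE2 held 1 and 3 counts of them, and Cxcl1 and Cxcl5 were not tested. Cxcl2 and Cxcl3 lie far to the right in both panels, and Cxcl12 near 0.

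Among the 8 other CXC ligands listed, 4 were tested. Of the interferon-induced ligands of Cxcr3, which draw T cells, Cxcl9 and Cxcl10 stood higher in some DE2 comparisons. Cxcl11, the other such ligand, was not tested and did not stand higher in irradiated DE2 than in irradiated WT skin. Cxcl10 was at 53.3, 31.5 and 19.3 CPM in irradiated DE2 libraries, against 0.274, 8.61 and 3.04 CPM in irradiated WT libraries. These groups did not overlap, but the log2 fold change of 3.10 ± 0.82 did not pass (adjusted p = 0.0578). Against untreated DE2, at 14.1, 4.53 and 1.94 CPM, Cxcl10 rose with UVB (2.32 ± 0.79, adjusted p = 0.0393). Cxcl9 was at 39.7, 16.5 and 10.2 CPM in irradiated DE2 libraries, against 4.38, 7.13 and 4.56 CPM in irradiated WT libraries, and did not pass there (2.04 ± 0.68, adjusted p = 0.137). In untreated skin Cxcl9 was called higher in DE2, at 12.9, 1.41 and 5.0 CPM, against 1.31, 0.932 and 1.67 CPM in WT (2.28 ± 0.75, adjusted p = 0.0388), although 1 DE2 library lay within the WT range. UVB gave Cxcl9 changes of like size in both genotypes, 2.01 ± 0.75 in WT skin (adjusted p = 0.939) and 1.77 ± 0.67 in DE2 skin (0.0623). Neither passed. Cxcl13, which draws B cells, and Pf4, platelet factor 4, passed in none of the 5 comparisons. Cxcl13 averaged 29.4 ± 17.2 CPM in irradiated DE2 and 18.8 ± 8.13 CPM in irradiated WT skin, and Pf4 60.5 ± 13.7 CPM in irradiated DE2 and 37.8 ± 16.3 CPM in irradiated WT skin (SD, n = 3 each). Cxcl11 had 9, 14, 13 and 0 counts in irradiated DE2, irradiated WT, untreated DE2 and untreated WT skin, and Ppbp 3, 3, 17 and 7. Cxcl17 had 1 count in all and Cxcl15 none.

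Of 6 other CXC and atypical receptors, 4 were tested, and 1 of them, Ackr3, was called in any of the 4 comparisons within a genotype or site. Ackr3 encodes an atypical receptor that takes up Cxcl12, and was lower in irradiated DE2 skin, at 51.4, 45.7 and 51.4 CPM, against 119, 79.8 and 70.6 CPM in untreated DE2 skin (-0.86 ± 0.27, adjusted p = 0.0298). In that comparison 27.8% of all genes were called, 14.4% higher and 13.4% lower, so 1 of 4 sets these receptors apart in nothing. Cxcr6, the receptor of Cxcl16, averaged 13.1 ± 9.60 CPM in irradiated DE2 and 6.92 ± 3.51 CPM in irradiated WT skin, and Cxcr3 5.36 ± 1.72 CPM in irradiated DE2 and 1.92 ± 3.32 CPM in irradiated WT skin (SD, n = 3 each). Neither passed (adjusted p = 0.738 and 0.722). Ackr1, which binds many chemokines on venules, averaged 7.57 ± 3.56 CPM in irradiated DE2 and 8.82 ± 7.63 CPM in irradiated WT skin. Cxcr1, the second receptor for ELR ligands, had 4 counts, all in irradiated DE2 replicate 2, and Cxcr5 had 9 counts in irradiated DE2 and 1 in untreated WT skin.

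Genes that induce or restrain the transcription of ELR chemokines were read from a list of 25, of which 22 were tested. In irradiated skin 4 were called higher in DE2 than in WT and 0 lower, where 2.35% of all genes were called higher and 0.608% lower. The median log2 fold change of the 22 was 0.82, against -0.03 over all genes. The 4 called were Il1b, the cytokine interleukin 1 beta, its antagonist Il1rn, the interleukin 17 receptor subunit Il17rc and Zfp36, which encodes tristetraprolin, a protein that speeds the decay of cytokine mRNA. Il1b averaged 756 ± 437 CPM in irradiated DE2 and 10.7 ± 1.15 CPM in irradiated WT skin (SD, n = 3 each; 6.13 ± 0.75, adjusted p = 0.0011). Il1rn averaged 370 ± 118 CPM in irradiated DE2 and 93.1 ± 15.0 CPM in irradiated WT skin (1.99 ± 0.29, adjusted p = 0.00209). Il17rc averaged 194 ± 18.9 CPM in irradiated DE2 and 76.9 ± 14.5 CPM in irradiated WT skin (1.34 ± 0.27, adjusted p = 0.0137). So a cytokine, its antagonist, a receptor subunit and a destabilising protein were higher together. Il17a and Il17f had no count in any library, which allows up to 0.284 CPM in irradiated DE2 skin.

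With UVB in DE2 skin 8 of the 22 were called higher and 1 lower, where 14.4% of all genes were called higher and 13.4% lower, with a median log2 fold change of 0.55 against 0.02 over all genes. Tnf, the gene of tumour necrosis factor, reached the level of the low-count filter in fewer than 3 libraries outside irradiated DE2. Tnf averaged 22.2 ± 14.6 CPM in irradiated DE2 and 1.22 ± 2.11 CPM in untreated DE2 skin (SD, n = 3 each; 4.10 ± 1.26, adjusted p = 0.0255). Il1f6, which encodes the epidermal cytokine interleukin 36 alpha, averaged 90.8 ± 20.2 CPM in irradiated DE2 and 6.06 ± 1.32 CPM in untreated DE2 skin (3.90 ± 0.59, adjusted p = 0.000275). The other genes called higher were Il1b, Il1f8, Il1f9, Il1rn, Il17ra and Zfp36, and Relb, an NF-kappaB subunit, was lower. In WT skin 0 of the 22 were called with UVB, where 0.0198% of all genes were, so the lack of a call says little. Il1b had 42, 46 and 31 counts in WT libraries with UVB, against 1, 0 and 8 without. These groups did not overlap, and the log2 fold change of 3.98 ± 0.99 did not pass (adjusted p = 0.553). For Il1b the interaction did not pass either (2.95 ± 1.58, adjusted p = 0.26), so its rise was not shown to be particular to DE2 skin. In untreated skin 2 of the 22, Il1b and Relb, were called higher in DE2 than in WT and 1, Il17ra, lower, where 23.0% of all genes were called in either direction. Relb averaged 17.95 ± 1.99 CPM in irradiated DE2, 12.6 ± 5.53 in irradiated WT, 43.4 ± 14.6 in untreated DE2 and 13.9 ± 6.86 in untreated WT skin (SD, n = 3 each). Il17ra averaged 32.7 ± 3.78 CPM in irradiated DE2, 26.1 ± 4.02 in irradiated WT, 12.7 ± 1.99 in untreated DE2 and 24.2 ± 0.804 in untreated WT skin. For both genes untreated DE2 was the group that stood apart. The interaction was called for Il1rn (2.20 ± 0.40, adjusted p = 0.00344) and Il17ra (1.25 ± 0.37, adjusted p = 0.0442). Between the irradiated groups Il17ra did not pass (0.33 ± 0.26, adjusted p = 0.638).

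Of 8 genes of chemokine processing and shedding 5 were tested. Mmp9, a gelatinase carried by neutrophils that trims ELR ligands, averaged 98.6 ± 13.5 CPM in irradiated DE2 and 14.1 ± 9.21 CPM in irradiated WT skin (SD, n = 3 each; 2.80 ± 0.64, adjusted p = 0.031). Adam10, the protease that sheds Cxcl16, averaged 89.9 ± 9.67 CPM in irradiated DE2 and 75.3 ± 11.3 CPM in irradiated WT skin, which did not pass (0.26 ± 0.25, adjusted p = 0.722). Mmp9 and Adam10 were called higher with UVB in DE2 skin (2.74 ± 0.63, adjusted p = 0.00592, and 0.84 ± 0.25, adjusted p = 0.0216). Adam17 and Dpp4, which inactivates Cxcl12 and Cxcl10, and Mmp12, a macrophage elastase that cleaves ELR ligands, passed in neither of these comparisons. Dpp4 averaged 52.0 ± 15.2 CPM in irradiated DE2 and 83.5 ± 25.8 CPM in irradiated WT skin, and Mmp12 5.14 ± 4.70 CPM in irradiated DE2 and 2.48 ± 3.83 CPM in irradiated WT skin (SD, n = 3 each).

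Neutrophil markers, summed over 18 genes, were higher in the irradiated DE2 libraries, where Cxcl2 and Cxcl3 were high. The 18 markers together took 0.475%, 0.497% and 0.45% of counts in irradiated DE2 libraries. They took 0.03% to 0.0505% in irradiated WT, 0.0139% to 0.0283% in untreated DE2 and 0.017% to 0.0182% in untreated WT libraries. S100a8 and S100a9, which encode calprotectin and are also made by stressed keratinocytes, carried most of the sum in irradiated DE2. Without them the other 16 markers took 0.0807%, 0.058% and 0.0241% in irradiated DE2 libraries, against 0.00947% to 0.0137% in irradiated WT, 0.0116% to 0.0274% in untreated DE2 and 0.0116% to 0.0154% in untreated WT libraries. On these 16 genes irradiated DE2 replicate 3 lay lowest of its group, as it did for Cxcl2, Cxcl3 and Cxcr2, and within the range of untreated DE2. Most of the untreated DE2 sum came from Il1r2, with 938, 378 and 502 counts, against 681, 647 and 276 in irradiated DE2. Hcar2 and Il1r2 together carried most of the irradiated DE2 sum of the 16. Hcar2 had 1305, 912 and 235 counts there, against 51, 82 and 70 in irradiated WT and 211, 123 and 102 in untreated DE2. In irradiated DE2 replicate 3 Clec4d had 66 and Trem1 50 counts, against 0 to 6 of each in untreated DE2. Fpr1 and Mmp8 had 0 counts in that replicate and in untreated DE2. The one marker at 0 in irradiated DE2 was Mpo, while 7 were at 0 in irradiated WT and 8 in each untreated group, Ly6g among them in all 3.

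Of 9 tested neutrophil markers, 6 were called higher in irradiated DE2 than in irradiated WT skin, where 2.35% of all genes were, and 8 higher with UVB in DE2 skin, where 14.4% were. Of the 9, Csf3r, Retnlg, Trem1, Clec4d and Stfa2l1 reached the filter's level in fewer than 3 libraries outside irradiated DE2, so their passing depended on the group where they were high and these counts support nothing further. Hcar2, a receptor for hydroxybutyrate that did not depend on that group, averaged 220 ± 135 CPM in irradiated DE2 and 18.5 ± 3.94 CPM in irradiated WT skin (SD, n = 3 each; 3.58 ± 0.43, adjusted p = 0.000673). Csf3r, the receptor of granulocyte colony-stimulating factor, was at 38.1, 37.0 and 6.93 CPM in irradiated DE2 libraries, against 0.548, 2.95 and 0 CPM in irradiated WT libraries. Untreated WT libraries held 8.27, 0 and 0 CPM of Csf3r, so replicate 1 of them lay above irradiated DE2 replicate 3. Within irradiated DE2, Csf3r was lowest in replicate 3, like Cxcr2. Its difference in irradiated skin did not pass (adjusted p = 0.163). Retnlg was at 56.9, 24.9 and 4.01 CPM in irradiated DE2 libraries, against 0.548, 0.738 and 0 CPM in irradiated WT libraries. Stfa2l1 was at 9.79, 7.02 and 5.10 CPM in irradiated DE2 libraries, against 0, 0.246 and 0 CPM in irradiated WT libraries. Clec4d, a lectin receptor of myeloid cells, averaged 44.2 ± 22.2 CPM in irradiated DE2 and 0.539 ± 0.730 CPM in irradiated WT skin (SD, n = 3 each). Against untreated DE2, with 0 counts of both, irradiated DE2 was at least 110.8-fold higher for Csf3r and at least 28.04-fold higher for Stfa2l1. These bounds set untreated DE2 to the floor of 3 counts over the group. They take the irradiated counts as exact and leave out the spread between libraries. Macrophage markers took 0.094% to 0.101% in irradiated DE2, 0.0374% to 0.0579% in irradiated WT and 0.0239% to 0.0653% in untreated DE2 libraries. Of these 10 markers Cd14 and Ly6c2 were called higher in irradiated DE2 than in irradiated WT skin. Ly6c2 passed the filter through irradiated DE2. Cd14 had 1292, 1222 and 331 counts in irradiated DE2 libraries, against 47, 57 and 43 in irradiated WT libraries. T cell markers took 0.00723% to 0.008% in irradiated DE2 and 0.00161% to 0.00265% in irradiated WT libraries. Keratinocyte markers took 2.48% to 3.07% in irradiated DE2 and 0.817% to 1.04% in irradiated WT libraries. Of the 8 keratinocyte markers Krt5, Krt14 and Krt1 were called higher in irradiated DE2 than in irradiated WT skin and Krt15, a keratin of basal and hair follicle cells, lower (-1.60 ± 0.33, adjusted p = 0.0178). The part of these cells in the chemokine values was not tested.

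**Figure D4:**
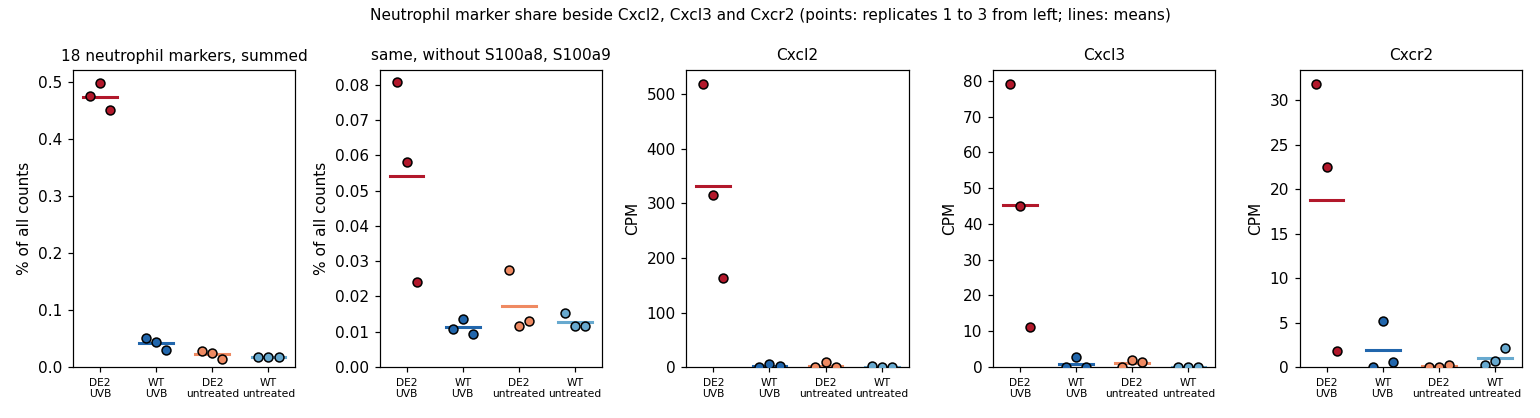
Share of all counts (%) in 18 neutrophil markers and in 16 of them without S100a8 and S100a9, and level of Cxcl2, Cxcl3 and Cxcr2 (CPM), in each library; points are replicates 1 to 3 from left and lines the group means. The share of all 18 is 0.45% to 0.497% in the irradiated DE2 libraries and under 0.06% elsewhere, while that of the 16 is 0.0241% in irradiated DE2 replicate 3, where Cxcr2 is at 1.82 CPM.

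The genes whose pattern was most like each member were sought by Pearson's r of log2 CPM over the 12 libraries, which fall into the 4 groups and share library depth, so r is a description that mixes differences between and within groups. Closest to Cxcl2 were Slfn4 (r = 0.949), Csrnp1, Clcn3, Atp6v1b2 and Ccl4 (r = 0.926), a chemokine gene of the CC family. Closest to Cxcl3 were Oasl1 (r = 0.981), Cidea, Cd24a, Gadd45b and Fam162a (r = 0.932). Cxcr2 was followed by Atp6ap2 (r = 0.953), Serpinb11, Zfp36, Mxd1 and Cmpk1 (r = 0.883), and Cxcr4 by Ier5l (r = 0.960), Cmpk1, Gm38359, Atp6v1a and Hbegf (r = 0.923). Cxcl14 was followed by Afdn (r = 0.912), Emp1, Ptpn3, Rai14 and Mllt10 (r = 0.888). Cxcl16 was followed by Tgfb3 (r = 0.910), Pdlim1, Wfdc5, Bcl11b and Col7a1 (r = 0.886). No gene stood on the lists of 2 members other than Cmpk1.

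Reads of Cxcl2 and Cxcl3 could be confused with each other at few places. Of the 50-base words in Cxcl2 transcripts 5.84% also occurred in another gene, all 126 of them in Cxcl3, and 4.29% of the words in Cxcl3 were shared. The share was 16.9% for Cxcl16, all with Zmynd15, and 6.68% for Cxcr2, while Cxcl1, Cxcl12, Cxcl14 and Cxcr4 shared none. The spread between libraries, as the fitted biological coefficient of variation, was 131% for Cxcl2, 94.7% for Cxcr2, 87.7% for Cxcl3 and 59.2% for Cxcr4, against 26.1% for Cxcl16, 28.8% for Cxcl12 and 28.9% for Cxcl14.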

How the data were processed

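The authors deposited raw read counts per Ensembl gene, 1 file per library and not normalized. Per the submitters' processing notes, reads were handled with Trimmomatic 0.39, Picard 3.1.0, SAMtools 1.16 and HTSeq 2.0.2 on GRCm38. The aligner, annotation release, strand setting and treatment of duplicates are not given in the sources used. Symbols, positions and exon lengths came from GENCODE M21, which named 53274 of the 53465 identifiers. Counts were fitted with edgeR 4.0.16 in R 4.3.3 (filter on low counts, TMM factors of 0.762 to 1.16, robust quasi-likelihood, 1 mean per group over all 12 libraries, 8 residual degrees of freedom) for 5 comparisons, with Benjamini-Hochberg adjustment over 15126 genes. The common dispersion was 0.128. DESeq2 1.42.0 was an alternative, and the fit was tested on simulated data. Groups came from the labels' genotype and treatment; replicate numbers follow accession order and pair nothing. Beside the 9 genes, the text names every counted gene of the 2 lists of other CXC ligands and receptors, the 3 of each other list with the smallest p between irradiated groups and the 3 with the largest change with UVB in DE2 skin, and the 5 most similar genes per member (those of Cxcl12 are not reported here); Zfp36, the others called within a list, Zmynd15 and markers outside this rule were named after their values were seen. The genes and lists were chosen with earlier results of these data known. Counting bounds set a group at 0 to a floor of 3 counts and take the counts of the other group as exact. Ratios with few counts above 0 have exact 95% intervals on counts summed over a group.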

Additional observations from a re-analysis of the deposited data

How the results depend on the processing

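No paired analysis was possible because the replicate numbers follow accession order and no label ties libraries to an animal. Of 590 values of single members under other settings, 524 kept direction and side of the threshold, 13 lost the threshold, 18 gained it and 35 changed sign, and none that changed sign was called. Cxcr4 had no value under the stricter filter, and Cxcl3 was not followed in comparisons with untreated WT, which held no count of it. Leaving out irradiated WT replicate 2 and untreated DE2 replicate 1 together was chosen after seeing the data, because their muscle shares lay apart from their groups. The cause of the changes below was not tested, other than the number of genes tested with no filter, 28874. At these depths low members rest on a few counts.

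With no filter, genes past the threshold between irradiated groups numbered 1031 (448 as reported), for UVB in WT 141 (3) and for the interaction 2438 (1585). Members past it then numbered 5 (3) between irradiated groups, 2 (0) between untreated groups, 1 (0) for UVB in WT and 2 (0) for the interaction. DESeq2 gave 876 genes and 1 member between irradiated groups, 22 genes for UVB in WT and 2 members for the interaction. With unscaled totals there were 1 gene for UVB in WT and 2 members for the interaction, and with only the libraries compared 0 genes for UVB in WT. Without both libraries there were 754 genes between irradiated groups, 19 for UVB in WT, 2 members between untreated groups and 1 member for the interaction. Leaving out 1 library in turn gave 130 to 616 genes and 1 to 4 members between irradiated groups, 2108 to 3881 genes and 0 to 1 members between untreated groups, 0 to 15 genes for UVB in WT, and 878 to 2585 genes and 0 to 1 members for the interaction.

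Sign changes concerned uncalled log2 fold changes. Without both libraries they were 0.17 for Cxcl12 between irradiated groups, 0.37 for Cxcl14 and -0.034 for Cxcl16 with UVB in DE2, -0.23 for Cxcl12, -0.072 for Cxcl14 and -1.69 for Cxcr2 with UVB in WT, and 0.45 for Cxcl14 in the interaction. Unscaled totals gave -0.078 for Cxcl12 and -0.084 for Cxcl14 with UVB in WT and 0.038 for Cxcl14 in the interaction, and the compared libraries alone -0.0014 for Cxcl14 with UVB in WT. Without 1 library, Cxcl12 ran from -0.40 to 0.17 between irradiated groups, -0.42 to 0.13 between untreated groups, -0.14 to 0.22 with UVB in DE2, -0.23 to 0.36 with UVB in WT and -0.23 to 0.32 in the interaction. Cxcl14 ran from -0.54 to 0.37 with UVB in DE2, -0.11 to 0.11 with UVB in WT and -0.57 to 0.36 in the interaction. Cxcl16 ran from -0.10 to 0.21 with UVB in DE2, Cxcl2 from -4.56 to 6.35 between untreated groups, and Cxcr2 from -1.68 to 2.03 and Cxcr4 from -0.98 to 0.034 with UVB in WT.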
